A study of Mus musculus with 5 samples.

Results

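RNA that came down with an anti-HA antibody from the hippocampus of knock-in mice was compared with RNA that came down with the same antibody from a wild-type mouse. The comparison uses 3 of the 5 libraries of the series, namely anti-HA from knock-in mouse 1, anti-HA from knock-in mouse 2 and the only wild-type anti-HA library. All mice carried the C57BL/6 background, and their age and sex are not given in the labels. The series concerns mRNAs bound by CYFIP1, but the labels do not state the knock-in allele, the place of its tag or whether a library pools several animals. The remaining 2 libraries came from the knock-in mice with mouse control IgG. The deposited lists hold regions of the mm10 genome with the reads of a knock-in library and of the wild-type library side by side. All unique regions of the 2 lists made against wild type were used, 5355 for mouse 1 and 5362 for mouse 2, of 16828 regions in the 4 lists of the series. Reads were summed per gene over regions that the deposited annotation places on it, which gave 3708 and 3251 gene names, 2461 of them in both lists. The 1188 genes with 20 or more reads of both libraries together in each list were compared.

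CYFIP1 works in a pair of protein assemblies. With FMRP, the protein lost in fragile X syndrome, it holds back the translation of bound mRNAs at synapses, and it is also a subunit of the WAVE complex. That complex passes signals from the small GTPase Rac1 to the Arp2/3 complex, which builds branched actin filaments such as those in dendritic spines. In RNA immunoprecipitation an antibody pulls down a protein together with the RNA attached to it. Anti-HA has no HA tag to bind in a wild-type mouse, so the wild-type library measures what the antibody and the beads collect without the tag.

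Annotated coding sequence within the leading region is shown for 7 genes that the results describe, 3 of those at 4-fold or more and 4 of those at 0.25-fold or less over wild type. The lists give reads per region only, so the bases that the reads covered are not known; the Myh9 region, for example, is 16530 bp long and touches 22 exons. For Nhsl1, C77080 and Cyfip1 the region with the most knock-in reads was taken, and for Myh9, Mical3, Macf1 and Lima1 that with the most wild-type reads, in the list of mouse 1 except for Cyfip1 (mouse 2). Each stretch is the middle 150 bases of the longest coding block in that region, from the GENCODE M21 transcript with the longest coding sequence on GRCm38, written 5′ to 3′ on the gene's strand. Capitals mark TGGA and AGGA, 4-base words that have been described at FMRP-bound sites. The words may overlap, the printed strand was searched for them, and their reverse complements TCCA and TCCT were counted separately.
Nhsl1: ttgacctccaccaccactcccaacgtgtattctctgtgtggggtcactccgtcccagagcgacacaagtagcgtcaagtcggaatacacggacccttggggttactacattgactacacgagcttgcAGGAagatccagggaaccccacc
C77080: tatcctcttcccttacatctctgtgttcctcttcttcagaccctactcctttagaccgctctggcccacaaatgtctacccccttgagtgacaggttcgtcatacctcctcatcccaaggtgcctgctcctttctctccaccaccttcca
Cyfip1: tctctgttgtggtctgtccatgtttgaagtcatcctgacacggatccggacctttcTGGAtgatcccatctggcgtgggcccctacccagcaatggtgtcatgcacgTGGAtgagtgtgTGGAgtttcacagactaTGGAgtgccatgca
Myh9: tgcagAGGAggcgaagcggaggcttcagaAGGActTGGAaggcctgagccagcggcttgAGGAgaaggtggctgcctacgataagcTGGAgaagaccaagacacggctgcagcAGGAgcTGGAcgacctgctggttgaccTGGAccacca
Mical3: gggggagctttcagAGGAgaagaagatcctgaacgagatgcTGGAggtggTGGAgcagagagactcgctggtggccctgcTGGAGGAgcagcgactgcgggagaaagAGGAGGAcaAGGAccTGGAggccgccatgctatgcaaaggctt
Lima1: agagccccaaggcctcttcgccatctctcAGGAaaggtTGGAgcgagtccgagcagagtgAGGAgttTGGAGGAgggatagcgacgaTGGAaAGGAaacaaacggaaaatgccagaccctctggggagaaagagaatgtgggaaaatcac
Macf1: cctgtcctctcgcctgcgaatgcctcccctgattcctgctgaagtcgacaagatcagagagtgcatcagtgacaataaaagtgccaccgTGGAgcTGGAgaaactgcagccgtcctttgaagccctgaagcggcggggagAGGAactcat
The Nhsl1 stretch lies in exon 5 of 7 at chr10:18525341-18525490 (+ strand), the C77080 stretch in exon 6 of 7 at chr4:129222991-129223140 (− strand) and the Cyfip1 stretch in exon 29 of 31 at chr7:55926332-55926481 (+ strand). The Myh9 stretch lies in exon 31 of 41 at chr15:77768841-77768990, the Mical3 stretch in exon 32 of 32 at chr6:120934687-120934836, the Lima1 stretch in exon 11 of 11 at chr15:99780608-99780757 and the Macf1 stretch in exon 69 of 98 at chr4:123385496-123385645, all on the − strand. The words occurred 1 time in the Nhsl1 stretch, 0 times in C77080, 4 times in Cyfip1, 8 in Myh9, 9 in Mical3, 7 in Lima1 and 3 in Macf1. In stretches of 2 more low genes chosen the same way and not printed, they occurred 2 times in Actn1 and 5 times in the 120 bases of Dst, so the numbers in high and low genes overlapped. As background, 87.9% of the 969 compared genes with an annotated coding sequence hold at least 1 of the words in the central 150 bases of it, so their presence in a stretch of this length sets no gene apart.

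The lists held 154408 and 166760 knock-in reads and 181527 and 180957 wild-type reads in mice 1 and 2, and the median region held 5 knock-in and 2 wild-type reads in each list. Reads outside listed regions are not in the lists, so the depth of the libraries is unknown. Of the regions, 99.3% and 95.2% lay on chromosomes 1, 4, 6, 7, 12 and 15, and the lists differed in which chromosomes they covered, with 545 regions on chromosome 7 in mouse 1 and 36 in mouse 2, and 1 and 184 on chromosome X. Chromosome 10, which carries Nhsl1 and Wasf1, held 10 and 22 regions. All of those held 20 or more reads, as did all 36 on chromosome 7 in mouse 2, which carries Cyfip1. High genes there have few ordinary regions of their chromosome beside them. A gene without a listed region was not measured. Regions with 0 wild-type reads are listed, 1514 in mouse 1 and 1558 in mouse 2. A region or gene can therefore pass a read minimum on knock-in reads alone. A fold here is the ratio of knock-in to wild-type reads divided by the median such ratio over the list's regions with 20 or more reads, which was 1.41 in mouse 1 and 1.75 in mouse 2. Regions with 20 or more reads had a median fold of 13.5 and 1.22 on chromosome 10 in mice 1 and 2. On chromosome 7 it was 0.952 and 8.13. Intervals are exact 95% (Clopper-Pearson) counting intervals for a pair of libraries and cover counting error only, since reads made by PCR are not independent molecules. Since 1 wild-type library serves both lists, the spread between the knock-in mice holds no variation of the control, and the labels do not say whether it is biological or technical. Scaling by all reads of a list in place of the median would raise every log2 fold by 0.73 in mouse 1 and 0.93 in mouse 2. No input library was analysed here, so more of an RNA in the tissue, from more cells or more RNA per cell, and more of it captured cannot be told apart.

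Most genes lay near the list median, with a few far outside on each side. The median gene lay at 1.19 times the list median in mouse 1 (quartiles 0.904 and 1.59) and at 1.07 times in mouse 2 (quartiles 0.841 and 1.43), and the mice differed by a median of 0.27 in log2. Above 1 in both mice lay 619 genes, below 1 in both 319, and the remaining 250 were split. At 4-fold or more in both mice were 8 of the 1188 genes (0.673%), at 7 places in the genome because C77080 and Yars share regions. At 0.25-fold or less in both were 13 genes (1.09%) at 11 places. At the milder limits of 2-fold and 0.5-fold stood 73 genes (6.14%) and 36 genes (3.03%). The counting interval lay wholly above 1 in both mice for 73 genes (6.14%) at 55 places and wholly below 1 for 79 genes (6.65%) at 63 places. That balance belongs to the median scale, since with the pooled ratio of all reads 605 genes had intervals above 1 and 28 below. These limits carry no test against variation between animals of the control group, which is a group of 1. Intervals narrow as reads rise, so the shares with intervals off 1 depend on depth. Of 558 genes with 50 or more reads in each list, 40 had intervals above 1 in both mice and 71 below. Shares of all genes set beside the gene lists further on are not matched for reads.

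**Figure D1:**
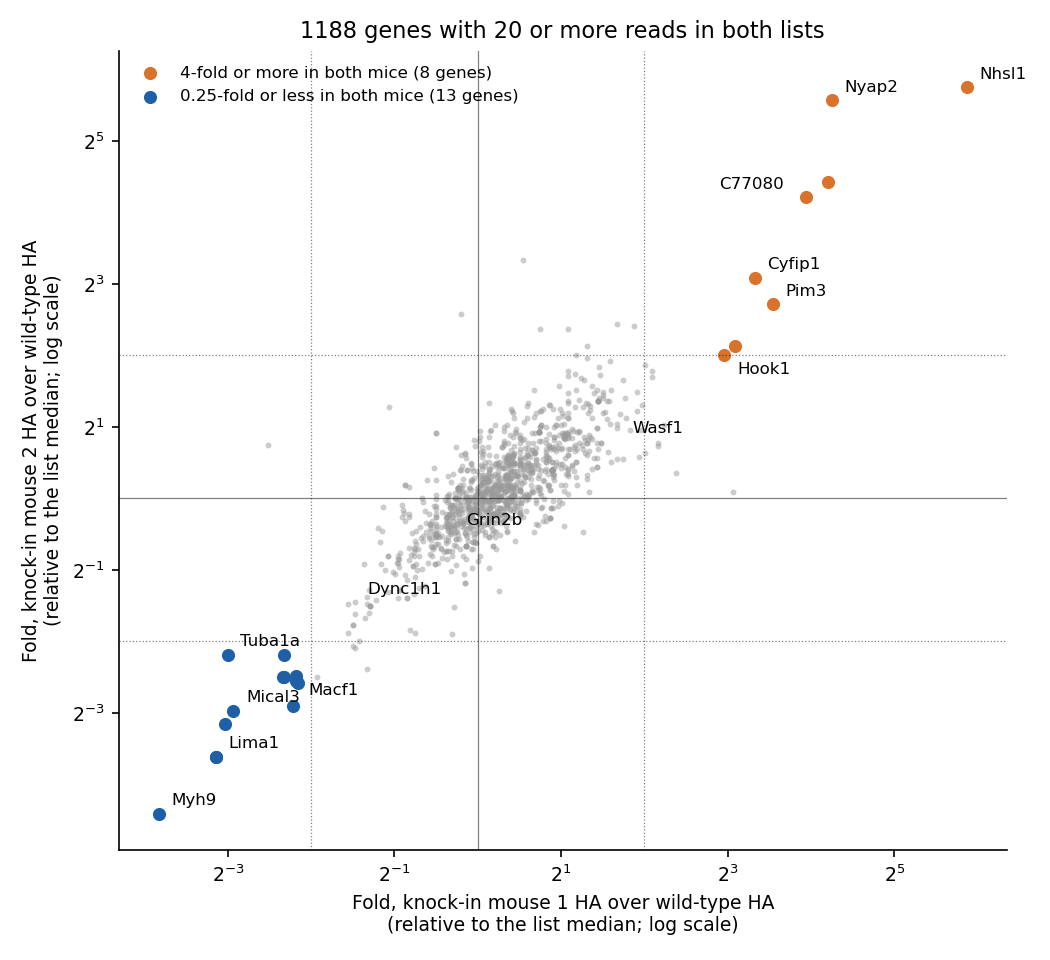
Fold of each of the 1188 compared genes in mouse 1 (x axis) and mouse 2 (y axis), both on log scales and relative to the list median, with dotted lines at 4-fold and 0.25-fold. The 8 genes at 4-fold or more in both mice (orange) and the 13 at 0.25-fold or less in both (blue) stand at the ends of a cloud around 1; the axes share the wild-type library.

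Among the genes far above the median, 3 places carried more than 300 reads in each knock-in library. Nhsl1, named for its likeness to NHS, the gene of Nance-Horan syndrome, whose proteins have a WAVE homology domain, held 2230 reads in knock-in mouse 1, 2549 in knock-in mouse 2 and 27 wild-type reads in each list, which is 58.5-fold (interval 40.1 to 89.0) and 53.9-fold (37.0 to 82.0). Both knock-in libraries were far above the wild-type library. C77080, which encodes a further NHS-like protein, held 348 and 518 knock-in reads and 16 wild-type reads in each list, 15.4-fold (9.35 to 27.2) and 18.5-fold (11.3 to 32.6). Yars, the tyrosyl-tRNA synthetase gene next to it, drew on shared regions, with 339 and 489 knock-in and 13 wild-type reads. Of the other members of the family, Nhsl2 held 45 knock-in reads and 1 wild-type read in mouse 1. In mouse 2 it held 5 and 0 and did not reach the read minimum. The lists cover different regions of Nhsl2, over the gene's start in mouse 1 and inside the gene in mouse 2. Nhs had no listed region. In mouse 1 alone 34 of 1932 genes (1.76%) were at 4-fold or more, and in mouse 2 alone 28 of 1671 (1.68%). The family had 2 measured members of 4, both past the 4-fold limit in both mice, where 0.673% of the 1188 compared genes stood. Both members passed the read minimum on knock-in reads alone, so their count is a description. The family was chosen with earlier results of these data known.

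Cyfip1, the gene the series is about, held 6101 and 6186 knock-in reads and 431 and 416 wild-type reads. That is 10.02-fold (9.09 to 11.1) and 8.50-fold (7.69 to 9.41), log2 3.21 ± 0.17 (SD, n = 2). In mouse 1 the reads came from 1 region of 62000 bp that also covers parts of Nipa2 and Gm17907, so the share of those genes cannot be told apart from that of Cyfip1. In mouse 2 they came from 26 regions of 200 to 400 bp inside Cyfip1, and all 26 lay above 1, from 5.31-fold to 24.0-fold with a median of 8.24. Wild-type reads reached 32 in the region with the most knock-in reads (392), which lies at chr7:55926201-55926600. The wild-type library thus held Cyfip1 reads along the gene, at a lower level than either knock-in library.

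The remaining genes at 4-fold or more rested on 1 to 3 wild-type reads. Nyap2, whose protein links phosphoinositide 3-kinase to the WAVE complex, held 27 and 83 knock-in reads and 1 wild-type read in each list, a ratio of 19.1 relative to the median (3.15 to 783) and 47.4 (8.28 to 1896). Pim3, a serine/threonine kinase gene, held 33 and 23 knock-in and 2 wild-type reads in each list. Slc11a2, which encodes the iron transporter DMT1, held 24 and 23 knock-in reads and 2 and 3 wild-type reads. Hook1, an adaptor that ties cargo to dynein, held 33 and 21 knock-in and 3 wild-type reads, and its fold in mouse 2 of 4.00 is the limit itself. The intervals of all 4 genes began above 1, the lowest at 1.19 for Hook1 in mouse 2. Their choice at 4-fold or more with the read minimum already places such intervals above 1, so this adds no separate evidence. All 4 genes also passed the read minimum on knock-in reads alone. With 50 or more reads required, 4 genes remained at 4-fold, and these were among the 8. They were Nhsl1, Cyfip1, C77080 and Yars, the last pair with shared regions. With 1 added to both read sums, 6 of the 8 remained at 4-fold. Just outside the limit lay the long noncoding RNA gene Lincpint (3.68-fold and 5.33-fold), Fgfr1op2 (4.01 and 3.64), the transcription factor gene Atf7 (4.25 and 3.43) and Rimklb (4.25 and 3.24). Grm7, a presynaptic metabotropic glutamate receptor gene, held 19 and 28 knock-in reads and 0 and 3 wild-type reads and fell short of the read minimum by 1 read in mouse 1.

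Of the 11 places far below the median, 4 hold a gene of the actomyosin list and 3 a gene of the plakin list, whose other members are given further on. Myh9, which encodes the motor chain of the contractile protein nonmuscle myosin IIA, held 130 and 84 knock-in reads against 1307 and 1020 wild-type reads, the lowest fold of all compared genes in both mice (0.0704, interval 0.0584 to 0.0844, and 0.0471, interval 0.0372 to 0.0588). Lima1, whose protein EPLIN crosslinks actin filaments, held 12 and 12 knock-in reads and 75 and 84 wild-type reads, 0.113-fold and 0.0816-fold, and shares its region with Gm17058. Actn1, an actinin that bundles filaments, held 26 and 26 against 151 and 133 reads, 0.122-fold and 0.112-fold. In all 3 genes, both knock-in libraries were far below the wild-type library. Mical3, an enzyme of the family that oxidises actin, held 71 and 83 knock-in reads and 384 and 372 wild-type reads, 0.131-fold and 0.127-fold. With the pooled ratio as the scale these 4 genes stayed at 0.25-fold or less and 5 genes did in all, the fifth being Gm17058.

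The giant linker proteins called plakins tie actin to microtubules and intermediate filaments. Macf1 held 1353 and 1349 knock-in reads against 4349 and 4329 wild-type reads, 0.220-fold (0.207 to 0.234) and 0.178-fold (0.167 to 0.189). Dst, the gene of dystonin, held 58 and 40 against 184 and 137 reads, 0.223-fold and 0.167-fold. Plec, the gene of plectin, held 25 and 25 against 89 and 81 reads, 0.199-fold and 0.176-fold. All 3 stayed below 1 with the pooled ratio as the scale, at 0.317-fold to 0.371-fold over both mice. Gm23548, a small gene inside Macf1, shares its regions.

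The remaining low places were of other kinds. Mapk8ip2, a scaffold of JNK signalling that also binds kinesin, held 43 and 26 knock-in reads against 153 and 68 wild-type reads, 0.199-fold and 0.218-fold. Pex5, the receptor that brings enzymes into peroxisomes, held 27 and 26 against 87 and 87, 0.220-fold and 0.171-fold. Tuba1a, a neuronal alpha-tubulin, held 6 and 10 against 34 and 26 reads, 0.125-fold (0.0429 to 0.301) and 0.220-fold (0.0946 to 0.471); tubulin genes are near copies of each other, so its reads may be split with others. The 5S ribosomal RNA gene n-R5s185 was at 0.198-fold and 0.177-fold. Just outside the limit lay Tmem38b (0.263-fold and 0.177-fold), the gene within which n-R5s185 lies, Clmn (0.340 and 0.271) and Bend6 (0.354 and 0.238).

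**Figure D2:**
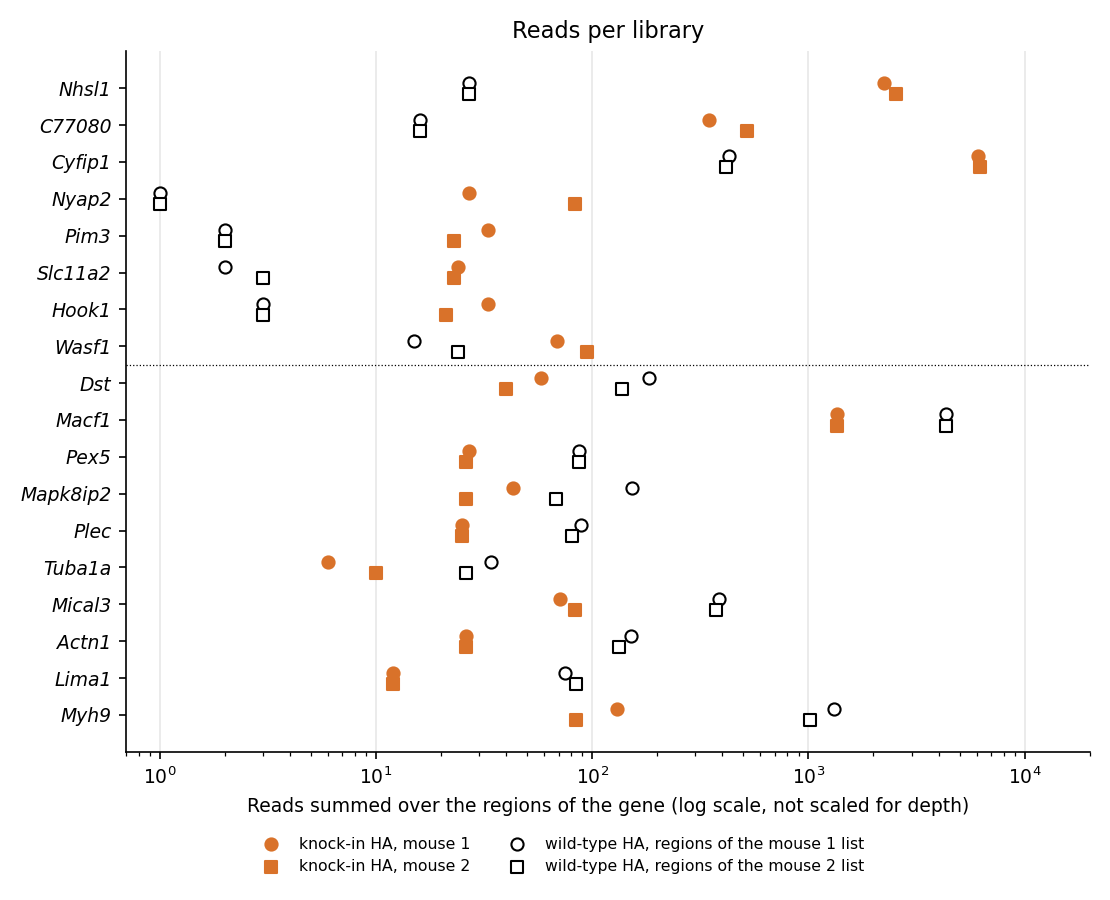
Reads of each library over the regions of 18 genes, on a log axis and not scaled for depth, with knock-in HA filled and wild-type HA open (circles, list of mouse 1; squares, list of mouse 2). Above the dotted line the filled points lie right of the open ones, and below it they lie left of them, from Dst at the top to Myh9 at 130 and 84 against 1307 and 1020 reads.

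Several genes at the extremes had a region in 1 list only. At 0.25-fold or less in mouse 1 alone were 27 of 1932 genes (1.4%), and in mouse 2 alone 24 of 1671 (1.44%). In mouse 1, whose list covers chromosome 7, Actn4, the other nonmuscle actinin, held 43 knock-in and 626 wild-type reads in a region of 25.6 kb shared with Capn12, 0.0486-fold (0.0348 to 0.0663). Of the same actomyosin list, Myh14, the heavy chain of nonmuscle myosin IIC, was at 0.290-fold, while Mical2 was at 1.16-fold (187 and 114 reads) and Ppp1r12c at 0.885-fold with intervals that include 1. In mouse 2 Ppp1r9a, the gene of the actin-binding protein neurabin, held 11 and 45 reads (0.140-fold), and the filamin gene Flna 49 and 24 (1.17-fold, 0.702 to 1.99). Of the list of plakins, spectrins and ankyrins, the beta spectrins Sptbn4 (515 and 1730 reads, 0.211-fold) and Sptb (0.303-fold) were low in mouse 1, and Ank3, the ankyrin of the axon initial segment, in mouse 2 (43 and 99 reads, 0.248-fold, 0.169 to 0.358). Low genes of other kinds included a region shared by Fbxo46, Qpctl and Snrpd2 in mouse 1 (22 and 102 reads, 0.153-fold), the glycolytic gene Pgk1 in mouse 2 (13 and 49, 0.152-fold) and a region shared by Gm24245 and Gm25732 (2 and 160 reads). These genes did not reach the read minimum in the other knock-in list, so they have no replicate.

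The gene lists place these values among related genes. Of 49 genes of the actomyosin and crosslinker list, 16 had a region in either list and 8 were measured in both, with a median of 0.323-fold in mouse 1 and 0.349-fold in mouse 2, against 1.19 and 1.07 for all genes. Myh9, Lima1, Actn1 and Mical3 were at 0.25-fold or less, 4 of 8 against 1.09% of all genes, and the other 4 were higher. Myo10, an unconventional myosin of filopodia, was at 0.515-fold and 0.571-fold, Micall1 at 1.19 and 1.43, Ppp1r12b, a regulator of myosin phosphatase, at 1.31 and 0.824, and Rock2, a kinase that drives myosin contraction, at 1.51 and 0.996. Of 22 plakin, spectrin, ankyrin and adducin genes 4 were measured; Macf1, Dst and Plec were at 0.25-fold or less and the fourth, the adducin Add2, lay at 0.702-fold (0.536 to 0.919) and 0.690-fold (0.535 to 0.890), on the other side of 1 with the pooled ratio. The choice of both lists followed earlier results of these data, so the counts are descriptions.

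The measured genes of the WAVE complex lay above the medians of all genes, not all of them with intervals above 1. Of 11 genes 4 were measured, Cyfip1 itself among them, with medians of 2.61 and 2.62 in mice 1 and 2. Wasf1, which encodes the WAVE1 subunit of neurons, held 69 and 95 knock-in and 15 and 24 wild-type reads, 3.26-fold (1.84 to 6.13) and 2.26-fold (1.43 to 3.70). Wasf2, the gene of WAVE2, held 25 and 47 against 9 and 9 reads, 1.97-fold (0.888 to 4.79) and 2.98-fold (1.45 to 6.93). Brk1, the smallest subunit, was at 1.29-fold and 1.48-fold with intervals that include 1. Cyfip1 and Wasf1 were the 2 of 4 with intervals above 1 in both mice, against 6.14% of all genes. Among 24 genes of the Arp2/3 complex and other nucleators 5 were measured, from 1.08-fold to 2.19-fold in mouse 1 and from 1.09-fold to 1.43-fold in mouse 2, and 0 of the 5 had intervals above 1 in both. Of 20 genes for partners of CYFIP1 and WAVE 3 were measured: Nyap2, and the Rac regulators Srgap3 (1.18-fold and 0.812-fold) and Dock4 (0.986 and 0.944).

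Motor and adaptor genes ranged widely, from Mapk8ip2 at 0.199-fold to Hook1 at 7.79-fold in mouse 1, with 14 of 35 measured and medians of 0.829 and 0.837. The heavy chain of cytoplasmic dynein, Dync1h1, held 190 and 245 knock-in and 374 and 383 wild-type reads, 0.360-fold (0.301 to 0.430) and 0.366-fold (0.310 to 0.430), and the kinesin Kif1a lay at 0.428-fold and 0.375-fold. Kif1b, the kinesin that carries mitochondria and synaptic vesicle precursors, held 300 and 349 against 365 and 386 reads, 0.582-fold and 0.517-fold. These 3 and Mapk8ip2 were the 4 members with intervals below 1 in both mice (6.65% of all genes) and stayed below 1 with the pooled ratio. The kinesin Kif26b was at 3.78-fold (2.02 to 7.69) and 2.80-fold (1.40 to 6.20). Of 6 measured tubulin and microtubule-associated protein genes, Tuba1a was the only one with an interval below 1 in both mice; Map2, a marker of dendrites, was at 0.451-fold (0.347 to 0.583) and 0.731-fold (0.516 to 1.04).

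Genes of the NMDA receptor and postsynaptic scaffold lay on both sides of the median. Of 27 genes 5 were measured, 3 with intervals below 1 in both mice (6.65% of all genes) and 1 above (6.14%), and the fifth, Shank1, was at 0.954-fold and 0.868-fold. The one above was Shank2, which encodes a postsynaptic scaffold protein, with 53 and 1013 knock-in and 13 and 250 wild-type reads, 2.89-fold (1.55 to 5.77) and 2.32-fold (2.01 to 2.67). The lists cover different regions of Shank2 in the 2 mice. Agap2, a GTPase-activating protein gene, held 161 and 475 against 205 and 596 reads, 0.556-fold (0.450 to 0.687) and 0.455-fold (0.403 to 0.515). Grin2b, the GluN2B subunit of the NMDA receptor, was at 0.821-fold (0.708 to 0.953) and 0.712-fold (0.604 to 0.841), and Dlgap3 at 0.679-fold and 0.729-fold; with the pooled ratio both were above 1 in both mice, while Agap2 stayed below. Over regions with the authors' adjusted p below 0.05 alone, Grin2b was above the median by 0.76 in log2. That p compares the same knock-in and wild-type reads, so this choice of regions is not independent of the fold. Of 40 presynaptic genes 8 were measured, from 0.719-fold to 1.40-fold over both mice, and 0 of them had an interval on the same side of 1 in both. Of 48 channel and pump genes 12 were measured, with medians of 1.06 and 0.840. Intervals lay below 1 in both mice for 4 of the 12, against 6.65% of all genes, and above 1 in both for 0. Among those below were the calcium channel Cacna1i (0.517-fold and 0.381-fold), the calcium pump Atp2b2 (0.628 and 0.506) and the IP3 receptor Itpr1 (0.605 and 0.501). With the pooled ratio, of these 3 only Cacna1i stayed below 1 in both.

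**Figure D3:**
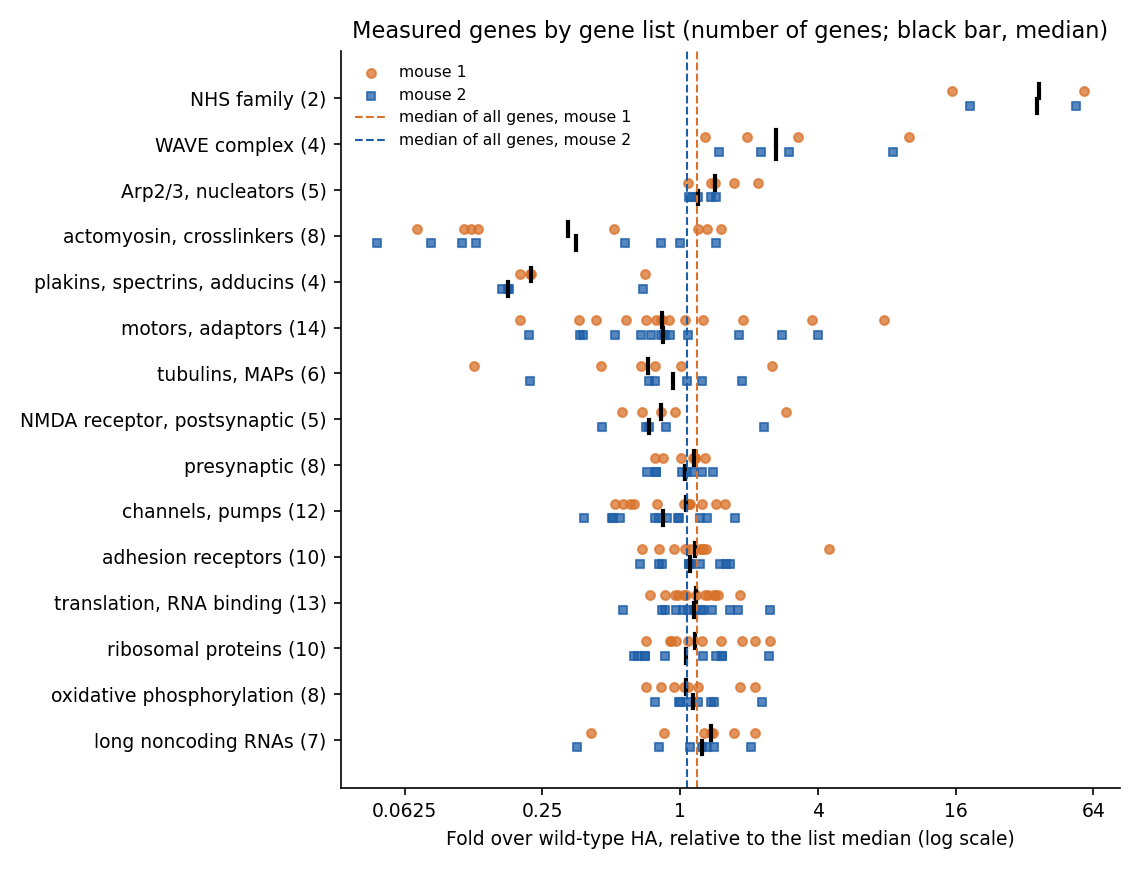
Fold of each measured gene in 15 gene lists, on a log axis and relative to the list median, with mouse 1 as orange circles, mouse 2 as blue squares, black bars for medians and dashed lines for the medians of all 1188 genes. The actomyosin and the plakin lists have medians of 0.323 and 0.349 and of 0.222 and 0.177. The WAVE list, which includes Cyfip1, has medians of 2.61 and 2.62.

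Known FMRP target mRNAs had 10 measured members of 45, with medians of 0.750-fold and 0.721-fold, which moved above 1 (1.25 and 1.37) with the pooled ratio. Macf1, Dst, Dync1h1, Grin2b and Dlgap3 had intervals below 1 in both mice, 5 of 10 against 6.65% of all genes, and Shank2 above, 1 of 10 against 6.14%. The shares of all genes are not matched for reads. Among genes with 50 or more reads in each list, 71 of 558 had intervals below 1 and 40 above. These 6 genes also stand in the lists above, and Grin2b and Dlgap3 moved above 1 with the pooled ratio. Arc, an immediate early gene of synaptic plasticity, held 23 and 19 knock-in and 28 and 21 wild-type reads, 0.582-fold (0.320 to 1.05) and 0.517-fold (0.263 to 1.01). Genes for translation and RNA binding (13 measured of 59, medians 1.17 and 1.15), ribosomal proteins (10 of 81, 1.16 and 1.06), oxidative phosphorylation (8 of 73, 1.06 and 1.14) and adhesion receptors (10 of 54, 1.16 and 1.10) lay close to the medians of all genes. In these 4 lists, 0 genes had an interval above 1 in both mice, and Adgrb2, an adhesion receptor of the brain angiogenesis inhibitor family, was the only one below (0.679-fold and 0.667-fold, but above 1 with the pooled ratio).

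The places with the most reads lay on both sides of the median. A region at chr17:39846301-39848085, annotated as Rn18s-rs5, Gm26917 and Yam1, held 45588 and 48838 knock-in and 79099 wild-type reads in each list, 0.408-fold and 0.353-fold, and 43.6% and 43.7% of all listed wild-type reads. A region in Lars2 held 6618 and 6697 against 11613 reads (0.404-fold and 0.330-fold), and a short region shared by Cmss1 and Filip1l held 6996 and 6589 against 14042 and 12794 (0.353 and 0.294). All 3 stayed below 1 with the pooled ratio. Rmrp, the RNA of RNase MRP, was at 0.472-fold and 0.571-fold, and above 1 in mouse 2 with the pooled ratio, whereas the nuclear long noncoding RNA Malat1 held 4115 and 5288 knock-in and 2146 wild-type reads, 1.36-fold (1.29 to 1.43) and 1.41-fold (1.34 to 1.48). The mitochondrial 16S rRNA mt-Rnr2 was at 1.29-fold and 1.39-fold. The part of ribosomal RNA content in the folds of other genes was not tested.

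Markers of cell types were thinly covered. Of the pyramidal and granule neuron markers 3 of 15 were measured, Neurod6 (0.929-fold and 1.11-fold), Prox1 of granule cells (2.07 and 1.14) and Bcl11b (1.01 and 0.783). The astrocyte marker Slc1a3 was at 0.979-fold and 0.653-fold and the oligodendrocyte marker Sox10 at 0.763-fold and 0.987-fold, the only measured markers of 12 and 14. Markers of microglia (11), choroid plexus (7), blood (6) and interneurons (10) had no listed region, and 2 of 12 markers of vessels had one in mouse 1 alone. The part of cell composition in any fold was not tested.

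Within the extreme genes the regions lay on the same side. Macf1 had 31 regions with 20 or more reads in mouse 1 and 33 in mouse 2, and all of them were below 1, from 0.0885-fold to 0.506-fold and from 0.111-fold to 0.381-fold. The 5 Myh9 regions of mouse 1 and the 3 of mouse 2 were all below 0.25-fold, and so were the 3 Dst regions of mouse 2 and 4 of the 6 of mouse 1. Akap6, the anchor of protein kinase A at the nuclear envelope, had 2 and 6 such regions, all below 1. Nhsl1 had 6 and 7 regions, all above 1; 3 and 4 of them held 0 wild-type reads, where the fold is a lower bound set against a floor of 3 reads per region. The highest was the region at chr10:18531241-18533760 with 723 and 877 knock-in reads and 4 wild-type reads, 128-fold and 125-fold. Regions of 1 gene share libraries and are not replicates.

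**Figure D4:**
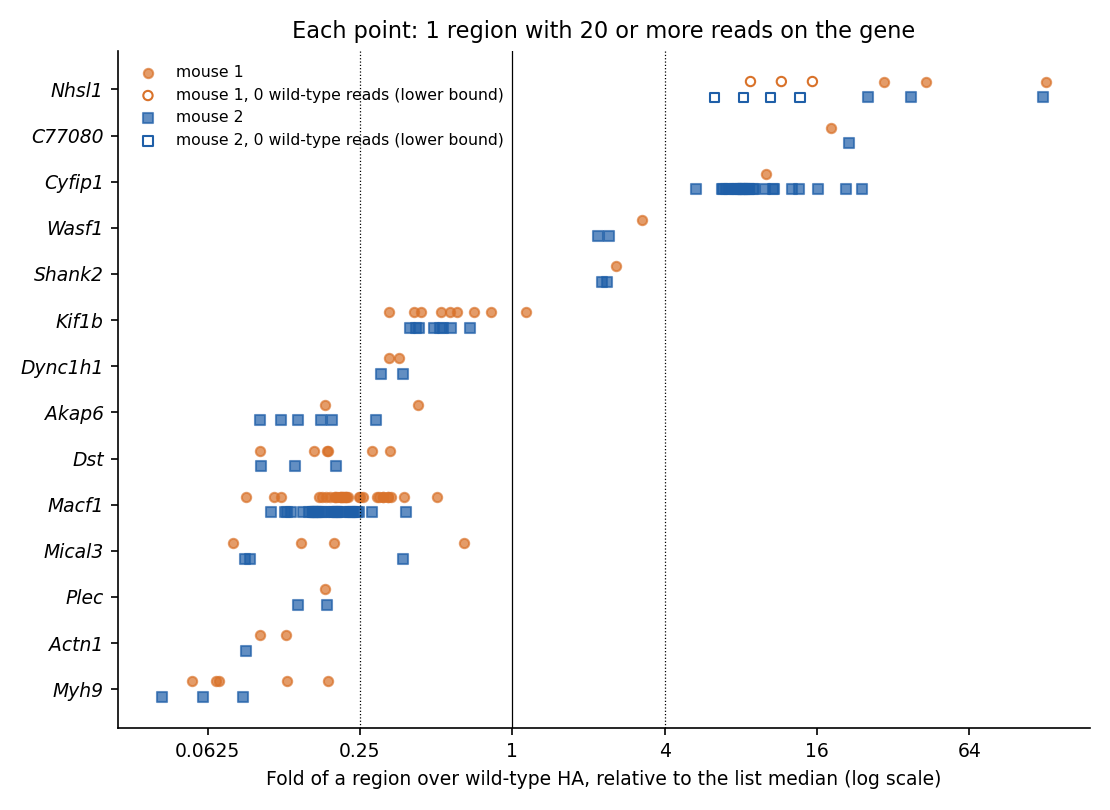
Fold of each region with 20 or more reads on 14 genes, on a log axis and relative to the list median, with mouse 1 as orange circles, mouse 2 as blue squares and open symbols for lower bounds. The Macf1 regions lie between 0.0885 and 0.506, the Cyfip1 regions between 5.31 and 24.0, and no Nhsl1 region lies below 6.29.

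Regions with identical coordinates in both lists allowed a test, because they give 1 count for each of the 3 libraries. The test was limma, which draws the variance of each region toward a value shared by all tested regions. Its p-values rest largely on that shared value and on the spread between the 2 knock-in libraries. They hold no variation of the wild-type control, and several regions of 1 gene are not independent. There were 193, of which 98 had 20 or more reads over the 3 libraries. In all 193 each knock-in library held at least 2 reads, while the wild-type library held 0 in some. An Nhsl1 region with 49 and 55 knock-in and 0 wild-type reads passed the minimum on knock-in reads alone. The minimum can thus admit a region through the libraries in which it is high, so the shares called per gene are descriptions. limma on log2(reads + 0.5), with 1 residual degree of freedom and the lone wild-type library assumed to vary like the knock-in pair, called 12 regions higher in knock-in HA (12.2%) and 26 lower (26.5%) at a Benjamini-Hochberg adjusted p below 0.05. Higher were 5 of 5 tested Nhsl1 regions, with log2 differences from 4.46 to 6.82 and limma adjusted p from 1.33e-07 to 1.86e-06; in 2 of the 5 the wild-type library held 0 reads, and their fitted differences depend on the 0.5 added. Lower were 15 of 15 tested Macf1 regions, with log2 differences from -2.95 to -1.76 and limma adjusted p from 7.09e-05 to 0.00406. With the pooled ratio as the scale 36 regions were higher and 16 lower, so the balance of directions again belongs to the scale.

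Other regions that passed lay on genes of different kinds. A Wasf1 region held 69 and 57 knock-in and 15 wild-type reads (log2 difference 1.38, SE 0.38, limma adjusted p = 0.0142) and a Hook1 region 16 and 18 against 3 (log2 1.67, SE 0.35, limma adjusted p = 0.00280), both higher in 2 of 2 knock-in libraries. The Myh9 region at the start of the gene held 5 and 2 knock-in and 19 wild-type reads (log2 difference -3.05, SE 0.52, limma adjusted p = 0.000682). Fam135b and Foxj3 had a higher region each, and Fgfr2, a growth factor receptor gene, a lower one with 303 and 267 against 549 reads (log2 difference -1.60, limma adjusted p = 0.00495). Ncdn, which encodes neurochondrin and shares its region with AU040320, was lower as well (log2 difference -1.54, SE 0.35, limma adjusted p = 0.00435). The lists gave the same wild-type reads in 189 of the 193 regions. In 4 they did not, and a Luzp1 region called lower from 150 wild-type reads in the list of mouse 1 is listed with 0 in that of mouse 2, as a Dcaf10 region called higher from 5 is listed with 30, so neither call has a firm control value; without these 4 regions 9 were higher and 23 lower.

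**Figure D5:**
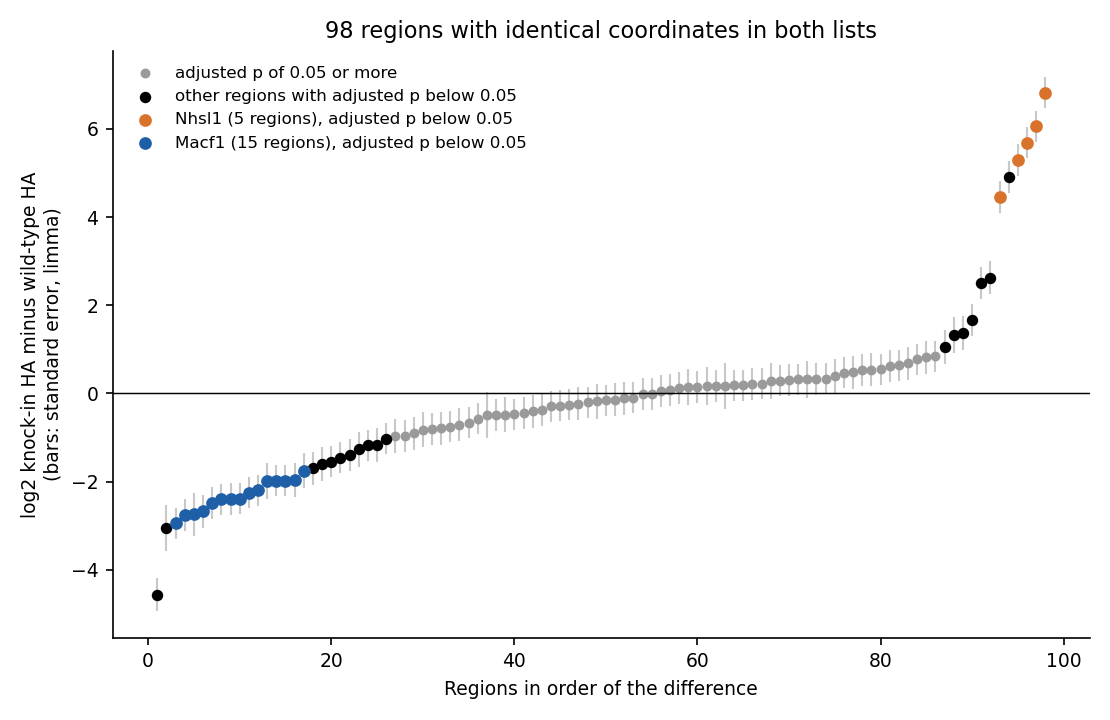
The log2 difference of knock-in minus wild-type HA in 98 regions with identical coordinates, in rising order, with the standard error from limma as bars. The 5 Nhsl1 regions stand at 4.46 or more and the 15 Macf1 regions between -2.95 and -1.76.

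The low genes had a longer median coding sequence than all compared genes, with members on both sides of the median of all. Coding length was not a criterion of the choice, but its bearing on the read minimum was not tested. The 10 with an annotated coding sequence had a median coding length of 4281 bases, from 1356 in Tuba1a to 23154 in Dst, against 1749 for the 969 compared genes with one and 2200.5 for the 8 high genes. With the genes cut into 5 groups of nearly equal size by coding length, genes at 0.25-fold or less numbered 0, 1, 1, 3 and 5 from the shortest to the longest, and genes at 4-fold or more 0, 1, 3, 2 and 2. Across the 969 genes the Spearman coefficient of coding length with the log2 fold was -0.15 in mouse 1 and -0.13 in mouse 2, and that of mRNA GC content was -0.26 and -0.32; genes are not independent replicates, and both folds share the wild-type library. TGGA and AGGA occurred at a median of 22.9 per kb of coding sequence in the low genes (17.7 to 34.5, the highest in Myh9), 17.7 in the high genes (11.5 to 18.9) and 16.3 in all, while the reverse words stood at 9.76, 12.7 and 11.3. Across all 969 genes the density of TGGA and AGGA had a Spearman coefficient of -0.02 with the fold in both mice.

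Regions were also grouped by their place on a gene; since the scale is the median over these regions, the large groups lie near 1 by construction. Regions inside a gene had a median of 0.980-fold and 0.982-fold, those over a gene's start 1.03 and 0.992, those over its end 1.05 and 1.02, and those covering a whole gene 1.06 and 1.03. Regions of which exons make up at least 50% had medians of 0.991 and 1.00, and regions with exons on a smaller share 1.00 and 1.00. The few regions in introns alone, 15 in each mouse, had medians of 1.17 and 1.01, and those on no GENCODE M21 gene, 16 and 26, medians of 1.33 and 1.46.

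Values for the same knock-in HA reads against IgG from the same mice were given by the other deposited lists, which share the knock-in libraries. Of the high genes only Nhsl1 and C77080 are described against IgG here. Both were above the median there too, C77080 with 8 and 21 IgG reads. The remaining high genes are not reported against IgG, so these 2 do not stand for the group. Of the 11 low places, 7 had a listed region over IgG in mouse 1: Myh9 (3.35-fold), Macf1 (2.62), Dst (1.78) and n-R5s185 (1.04) lay above the median and Mical3 (0.875), Pex5 (0.806) and Actn1 (0.599) below. In mouse 2, 7 places had one: Macf1 (3.08-fold), Mapk8ip2 (2.90), Plec (2.22), Myh9 (1.81) and Lima1, with 12 knock-in reads and 1 IgG read, lay above and Actn1 (0.625) and Tuba1a (0.278) below. Those of Pex5, n-R5s185 and Lima1 rest on fewer than 20 reads.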

How the data were processed

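RNA immunoprecipitation libraries from 2 knock-in mice and 1 wild-type mouse, all with anti-HA, were compared. Reads were aligned with TopHat or TopHat2 (GRCm38, mm10), per the submitters' processing notes; per the file headers, rtracklayer 1.28.9 wrote the lists. The sources used here do not name the region caller. The deposited lists hold other values than a plain table, namely attributes per region with whole numbers of reads of both libraries, not scaled for depth, per the file headers. Libraries were assigned from the list names.

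Folds, floors (3 reads for a control of 0) and intervals were computed with Python 3.11.15 and scipy 1.17.1. edgeR, planned for identical regions, was not run. The reads lie in attribute fields and were not classed as a table of counts, although they are whole numbers. In its place limma 3.58.1 (R 4.3.3) on log2(reads + 0.5) was used, tested on simulated data. Gene names matched GENCODE M21 for 95.6% of 4498. Named genes were fixed ones, the 20 highest and 20 lowest by the weaker mouse, the 10 with most reads and up to 8 per gene list; genes in 1 list only, those near a limit, Akap6, Cacna1i, Grm7, Foxj3 and Fam135b were chosen after their values were seen. A few genes of the lists are not reported here. Other scales, read minimums and choices of regions were tried as alternatives. The members and gene lists were chosen with earlier results of these data known.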

Additional observations from a re-analysis of the deposited data

Results flagged for a closer look

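Regions that the deposited annotation places on no gene took no part in the sums per gene. Of those with 20 or more reads, 24 in mouse 1 and 31 in mouse 2, 3 places lay at 4-fold or more in both mice, above the wild-type control library. The region at chr10:18318721-18319350 held 118 and 117 knock-in and 2 wild-type reads, a ratio of 41.8 relative to the list median in mouse 1 (interval 11.3 to 349) and 33.4 in mouse 2 (9.05 to 279). In GENCODE M21 it overlaps the 5′ end of Nhsl1 with 292 exon bases, and by limma it was higher with a log2 difference of 4.91 (adjusted p = 1.01e-06). The region at chr14:104715801-104716000 held 3197 and 3141 knock-in reads and 357 and 354 wild-type reads, 6.34-fold (5.68 to 7.09) and 5.07-fold (4.54 to 5.68), and lies in an intron of the long noncoding RNA gene D130009I18Rik. The region that starts at chr6:123347601 held 21 and 34 knock-in and 2 wild-type reads, 7.44 (1.82 to 65.4) and 9.71 (2.49 to 83.5) relative to the median, and overlaps no gene in GENCODE M21.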

How the results depend on the processing

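The counts depend on the scale and on which reads are summed. As reported, 8 genes were at 4-fold or more in both mice, 13 at 0.25-fold or less, 73 had intervals above 1 and 79 below, and 12 and 26 identical regions were higher and lower by limma. In that order, the pooled ratio gave 50, 5, 605, 28, 36 and 16, and the pooled ratio without the region of most wild-type reads gave 17, 5, 312 and 35 with 24 regions higher. Scaling by the median gene gave 37 genes with intervals above 1, and by the median region of 50 or more reads 114. Regions inside genes only, with 520 genes compared, gave 4, 8, 38 and 39 genes. The authors' adjusted p below 0.05 left 3 genes at 0.25-fold or less and 32 intervals below 1. That p compares the same knock-in and wild-type reads, so regions chosen by it are not independent of the fold. Regions placed on 1 gene only, with 586 genes compared, gave 5 genes at 4-fold, 30 intervals above 1 and 46 below. No minimum of reads gave 32 genes at 4-fold and 37 regions higher, 50 or more reads gave 4 and 40 intervals above 1, and a reciprocal overlap of 90% gave 27 regions higher. Leaving out either knock-in library, which asks for the limit in 1 mouse, gave 28 to 34, 24 to 27, 152 to 224 and 152 to 157 genes. The cause of these shifts was not tested beyond the fewer genes compared or libraries asked for. Genes past 4-fold or 0.25-fold kept their direction, but 5 named genes with intervals below 1 in both mice moved above the median with the pooled ratio, to log2 0.30 for Add2, 0.44 for Grin2b, 0.32 for Dlgap3, 0.0015 for Atp2b2 and 0.26 for Adgrb2. Grin2b did so as well with the region of most wild-type reads left out of the pooled ratio (0.12) and over regions with the authors' adjusted p below 0.05 (0.76). In all, 38 of 150 named genes changed side with the pooled ratio. TMM, edgeR and DESeq2 were not run, and leaving out a knock-in library leaves limma no residual degree of freedom. The limma alternatives with another wild-type list, another added count, a trend or without 4 regions were chosen after seeing the data. No paired analysis was possible because the knock-in and wild-type groups share only the replicate number 1. Listed regions held a median of 5 knock-in reads, so folds of most genes have wide counting intervals.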
